A study of Mus musculus with 18 samples.

Results

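Mouse genes that carry many annotated transcripts were followed in hippocampus that overexpressed the microRNA miR-212. The members were the gene symbols with 8 or more transcript rows in the count table of the miR-212 experiment, 189 of 4618 symbols (4.09%), and they held 2008 of its 11706 rows (17.2%). For every row, its raw count was divided by the sum over the rows of its symbol in the same library, and this share (in percent of the symbol's summed count) was compared between transgenic and control hippocampus. The symbols were chosen by their number of rows, with no use of a difference between the groups. The deposited table is one of filtered genes, in which no row had fewer than 272 reads over the 6 libraries, so the number of rows of a symbol also depends on its counts.

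The transgenic mice were tTA::miR212 animals of strain C57BL/6, in which a tetracycline transactivator (tTA) drives expression of the microRNA, and the controls were their nontransgenic counterparts of the same strain. The promoter that drives tTA and the age of the animals were not given in the sources used here. Because the controls carry neither tTA nor the microRNA transgene, an effect of the driver and an effect of miR-212 cannot be told apart. Polyadenylated RNA of both hippocampi was sequenced. The 3 libraries of a genotype are pools made from the cDNA of 6 animals, and there were 3 control and 3 transgenic libraries. The 6 libraries are numbered here as in the table's columns (control 1 to 3, transgenic 1 to 3), since the columns could not be tied to the letters of the individual samples.

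One gene can give rise to several RNAs by use of different promoters, alternative splicing and different polyadenylation sites. In neurons, splicing of adhesion molecules, channels, scaffolds and cytoskeletal proteins is known to be extensive, and transcripts of one gene often differ in the 3′ untranslated region (3′ UTR), where microRNAs bind. A microRNA recognises a target mainly through its seed, bases 2 to 8 counted from its 5′ end. Transcripts of one gene can therefore differ in whether their 3′ UTR holds the match. The mature miR-212-3p and miR-132-3p are shown because they share their seed, and miR-212-5p because it comes from the same hairpin with another seed (RefSeq, 5′ to 3′, seed in capitals).
mmu-miR-212-3p: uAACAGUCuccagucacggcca
mmu-miR-132-3p: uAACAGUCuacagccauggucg
mmu-miR-212-5p: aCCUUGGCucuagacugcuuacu

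The libraries held between 3140536 and 3739682 counts over all rows. Markers of excitatory hippocampal neurons were present in all 6 libraries (10 of 12 listed genes, summed level 3318 to 3718 CPM, a symbol's summed count scaled to a common library total), and the 3 listed choroid plexus markers found, Ttr, Kl and Enpp2, ranged from 90.7 CPM in transgenic 2 to 588.9 in transgenic 1, with 222.2 to 585.1 in the controls. Xist, the X-inactivation RNA made in females, was at 316.2, 537.2 and 562.5 CPM in the controls and at 1.27, 293.6 and 53.6 in the transgenic libraries. All transgenic values of Xist lay below all controls, lowest in transgenic 1. The transgenic libraries stood farther from each other than the controls did: the chi-square of summed counts per degree of freedom was 3.35 to 5.33 between transgenic pairs and 1.39 to 2.27 between control pairs, where sampling noise alone gives about 1. MiR-212 itself was not analysed here, so the overexpression was not checked.

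The number of rows per member ran from 8 to 25, with a median of 9. There were 56 symbols with exactly 8 rows just inside the limit and 75 symbols with 7 rows just outside it, and 7 members had 20 or more. Of the member rows, 1885 were matched by transcript identifier to GENCODE M1 on the mm9 mouse genome. Protein-coding transcripts made up 68.8% of member rows against 79.3% of all rows of the table, and retained-intron transcripts, spliced RNAs that keep an intron, made up 12.3% against 7.03%. A retained-intron row was present in 104 of the 189 members and a row annotated for nonsense-mediated decay, the pathway that degrades RNAs with an early stop codon, in 65.

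Rows of one symbol share most of their exons, and this sets what a share can show. In the annotation, 966 of the matched member rows (51.2%) had no exonic base that was absent from every other row of the symbol, and 226 rows in 118 symbols had at least 25% of their bases to themselves. Within a symbol, counts were higher in rows of greater annotated length (the median Spearman correlation across rows within a symbol was 0.867, above 0 in 188 of 189 symbols, given as a description because the rows share reads). In 68 members, 200 rows carried counts identical in all 6 libraries to those of another row. Nsf, the ATPase that takes SNARE complexes apart after vesicle fusion, shows the overlap: its coding row ENSMUST00000103075 and its row ENSMUST00000040443 differed by at most 2 reads in any library at counts of 1666 to 2149. A read was therefore counted for more than 1 row, and a row's share is relative usage, not the fraction of molecules.

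Row shares of the members were nearly the same in transgenic and control hippocampus. Averaged over 3 libraries a group, the median absolute difference in share was 0.0925 percentage points and its 95th percentile was 0.485, and 6 of 2008 rows differed by more than 1 point. On the log2 scale the median absolute ratio of shares was 0.017 and the largest was 0.36, for a row of L1cam. No member row passed an adjusted p of 0.05 in edgeR's quasi-likelihood test with the symbol's summed count as offset, as in the whole table (0 of 9643 rows of symbols with at least 2 rows, 0.0%). At an unadjusted p under 0.05, edgeR gave 11 member rows (0.548%, against 0.249% of all rows), and limma on the log2 share gave 88 (4.38%, against 5.12%) with a smallest adjusted p among members of 0.519.

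The shares varied little between libraries. Their median coefficient of variation between libraries was 1.75% in controls and 1.80% in transgenic hippocampus, below the 6.66% that counting error of independent reads would give, and 1868 rows varied less than that counting error in controls. Rows of a symbol share reads with each other and with the sum, so this small spread does not show how precisely the usage of single transcripts was measured. EdgeR does not take the spread below counting error, so its test is strict for rows that share reads, whereas limma takes it from the shares. By limma, the 95% confidence interval of the share ratio lay within a 1.25-fold change in either direction for 1882 rows (93.7%) and within 1.5-fold for 2003. For the 226 rows with at least 25% of their bases to themselves, the median half-width of that interval was wider, 0.152 against 0.061 on the log2 scale for all member rows, and 178 of them stayed within 1.25-fold. None of these 226 rows passed in edgeR or limma (adjusted). At an unadjusted p under 0.05 there were 3 by edgeR (1.33%, against 0.249% of all rows) and 8 by limma (3.54%, against 5.12%).

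**Figure D1:**
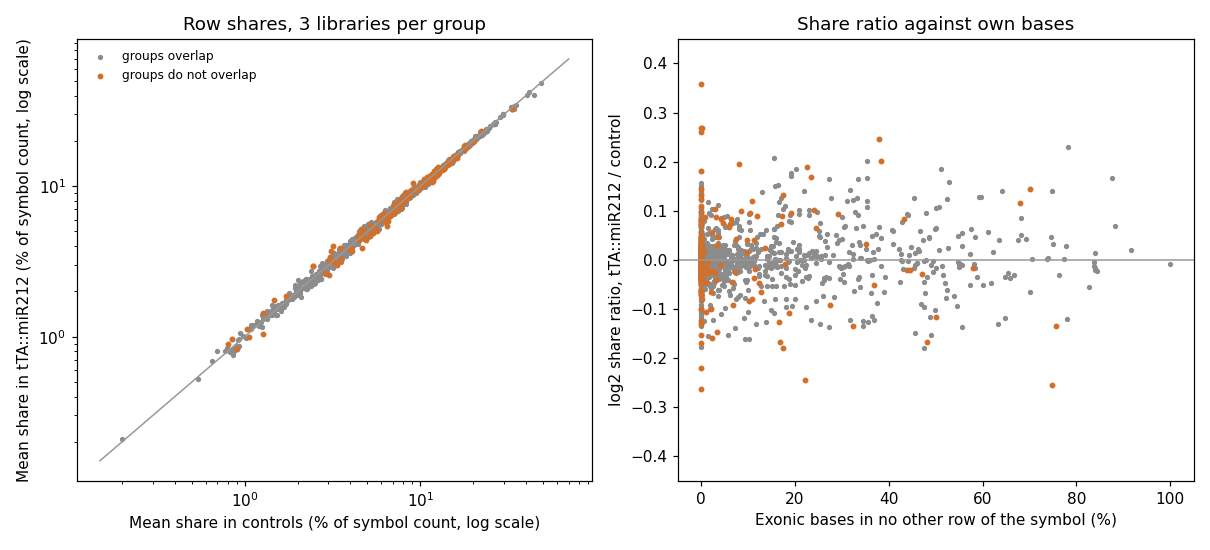
Left, mean share of each of the 2008 member rows, in percent of the symbol's summed count. Controls are on the x axis and tTA::miR212 on the y axis, both on a log scale. Right, log2 ratio of shares (y axis) for the 1885 matched rows. The x axis gives the percent of a row's exonic bases found in no other matched row of the symbol. Orange points are rows whose 3 control and 3 transgenic shares did not overlap; all points lie close to the line of equal share, and no log2 ratio exceeds 0.36 in size.

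The 3 transgenic shares lay entirely outside the range of the 3 control shares in 200 member rows (9.96%), against 9.25% of all rows tested. Transgenic shares were above control in 86 of them (background 4.5%) and below in 114 (background 4.75%). The 448 rows of symbols with exactly 8 rows gave 9.38% and the 525 rows of symbols with 7 gave 9.71%, and symbols with 12 or more rows gave 7.88%. At the level of whole symbols, with the p-values of a symbol's rows combined by Simes' method, 0 of 189 members passed (0.0% of 2555 symbols). Unadjusted, 0 members were under 0.05 from edgeR (0.157% of all symbols) and 8 from limma (4.93%).

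Annotated classes of transcripts did not differ in share beyond the spread between libraries. Retained-intron rows took 6.26, 6.26 and 6.24% of all member counts in controls and 6.17, 6.45 and 6.11% in transgenic libraries (6.25% ± 0.014 and 6.24% ± 0.18, SD, n = 3). Rows annotated for nonsense-mediated decay took 3.30, 3.33 and 3.32% in controls and 3.35, 3.32 and 3.19% in transgenic libraries. In both classes the control range lay within the transgenic one, and the exact two-sided permutation p was 1.0 and 0.8 (3 libraries against 3 cannot go below 0.1). Coding rows took 76.6% ± 0.11 and 76.8% ± 0.79 (exact permutation p = 0.9). The transgenic libraries were more spread than the controls in all 3 classes.

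The members with the most rows were Lphn3 (latrophilin 3, an adhesion receptor, 25 rows), Ctnnd1 (p120 catenin, a partner of cadherins, 24), Arpp21 (a cAMP-regulated phosphoprotein, 23), Madd (an activator of Rab3, 23) and Gnas (the alpha subunit of the stimulatory G protein, from a complex imprinted locus, 20). In Ctnnd1 and Gnas, no row differed in mean share by more than 0.095 percentage points and no row was without overlap. Madd had a largest difference of 0.064 points, and Arpp21 one of 0.326 points with all rows overlapping. In Lphn3, 3 of 25 rows lay above and 6 below the controls (4.5% and 4.75% over all rows), and these rows share reads. Its summed level was 973.6, 1125 and 990.7 CPM in controls and 903.2, 847.7 and 1592 in transgenic libraries, so that transgenic 3 alone was high.

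Retained-intron rows of Lphn3, Luc7l2, Kalrn and Araf are shown first, with the splice donor that the row reads through. Each sequence is given on the gene's strand from the mm9 genome, with the last exonic bases before the donor in lower case and the following intronic bases, which a spliced transcript lacks, in capitals.
Lphn3, chr5:82117708-82117737, plus strand: gacaatattcGTAAGTGACCTTTTGCTAAG
Luc7l2, chr6:38505054-38505083, plus strand: agggtaccgcGTGAGTTGAAACATTGGTCA
Kalrn, chr16:34220122-34220151, minus strand: ctctgagcagGTGAGAGGGAAGTCTGTGGA
Araf, chrX:20429145-20429174, plus strand: agggtcccagGTAGGGATGTCGTAGATGAA
The donor of Lphn3 is used by 20 coding rows and that of Kalrn by 12, and those of Luc7l2 and Araf by 2 each. The retained-intron rows continue past these donors for 48 bases in Lphn3, 1299 in Kalrn, 2986 in Luc7l2 and 186 in Araf.

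For Lphn3 the row that ends in this intron, ENSMUST00000136104, held 2.44, 2.32 and 2.55% of the gene's counts in controls and 2.92, 3.09 and 2.85% in transgenic libraries. All transgenic values were above all controls, also in the 2 libraries whose summed level was not raised (log2 share ratio 0.27, edgeR adjusted p = 1, limma 95% interval 0.15 to 0.41). The row ENSMUST00000136104 has no base of its own, and 48 of its 3140 bases lie past the donor. A second retained-intron row of the gene, ENSMUST00000149280, had the same counts and is not a separate measurement. In Luc7l2, a component of the U1 small nuclear ribonucleoprotein that recognises splice donors, the retained-intron row ENSMUST00000160922 has 74.7% of its bases to itself. Its share was 6.13, 6.94 and 6.38% in controls and 5.10, 5.59 and 5.63% in transgenic libraries, lower without overlap (log2 ratio −0.25, limma interval −0.41 to −0.09, edgeR adjusted p = 1). The counts behind these shares were 66 to 96 reads a library.

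Kalrn encodes kalirin, a protein of dendritic spines. Its retained-intron row ENSMUST00000137216 held 2.52, 2.52 and 2.32% in controls and 2.30, 2.33 and 2.17% in transgenic libraries. These groups overlapped, and the limma interval of the log2 ratio ran from −0.24 to 0.01. For the X-linked kinase gene Araf, the retained-intron row ENSMUST00000123219 held 9.55, 8.08 and 9.82% in controls and 10.45, 10.99 and 10.02% in transgenic libraries. Its difference of 1.34 points was the largest of all rows without overlap, yet the nearest values of the groups, 9.82 and 10.02%, lay closer together than the controls did among themselves (limma interval −0.02 to 0.42). With the retained-intron row of Nsf described next, 5 such rows were named for their small p or their large difference without overlap. Their share was above control in Lphn3 and Araf, below in Luc7l2 and Nsf, and overlapping in Kalrn.

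In Nsf (chr11:103683096-103815370, minus strand, the gene's span in the table), the short retained-intron row ENSMUST00000146036 held 5.61, 5.76 and 5.69% in controls and 5.05, 5.23 and 4.80% in transgenic libraries. Of all members Nsf ranked first by Simes' method, through this row, and the groups did not overlap (log2 ratio −0.18, limma interval −0.27 to −0.09, edgeR adjusted p = 1). Atp6ap1, an X-linked accessory subunit of the proton pump of vesicles, had shares of 3.23, 3.33 and 2.77% against 3.37, 3.89 and 3.84% in ENSMUST00000154630. L1cam, an X-linked axonal adhesion molecule, had 2.63, 3.72 and 3.25% against 3.99, 4.29 and 3.78% in ENSMUST00000124560. In both genes the lowest transgenic value was just above the highest control, and both rows have no base of their own. L1cam's log2 ratio of 0.36 (limma interval −0.02 to 0.69) rests on 55 to 120 reads a library. The part of the difference in Xist between the pools in the X-linked rows named here was not tested.

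The smallest limma p of all member rows belonged to Phldb1 (chr9:44494387-44543281, minus strand), a pleckstrin-homology protein. Its coding row ENSMUST00000135436 held 6.48, 6.49 and 6.66% in controls and 5.88, 5.86 and 5.82% in transgenic libraries. Both groups were narrow and clearly apart (log2 ratio −0.16, limma interval −0.20 to −0.12, limma adjusted p = 0.519, edgeR adjusted p = 1), but only 2.2% of this row's bases are its own. Abr had 1.58, 1.48 and 1.37% against 1.74, 1.79 and 1.73% in ENSMUST00000131059. Wnk2, a kinase of the WNK family that lacks the usual catalytic lysine, had 4.32, 4.90 and 4.68% against 3.90, 3.95 and 3.83% in ENSMUST00000159196. Neither pair of groups overlapped, Abr being higher and Wnk2 lower in transgenic hippocampus. Their limma intervals were 0.09 to 0.41 and −0.38 to −0.12, and the adjusted p was 1 by edgeR for both and 0.846 and 0.808 by limma.

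The largest difference in points was in Tmbim6 (chr15:99223313-99240480, plus strand), which encodes Bax inhibitor 1 of the endoplasmic reticulum membrane. Its longest row, ENSMUST00000023749, held 41.7, 46.7 and 44.2% in controls and 39.8, 41.8 and 38.8% in transgenic libraries, a difference of −4.08 points in which transgenic 2 reached the lowest control. A shorter coding row of the gene, ENSMUST00000160635, held 8.44, 7.87 and 8.25% against 9.14, 8.77 and 9.28%, without overlap. Shares of a gene sum to 100%, so these opposite differences are not independent. The gene's summed level was also above control in every transgenic library, 490.0, 469.8 and 497.0 CPM against 447.9, 408.5 and 454.7 (log2 change 0.15, edgeR adjusted p = 0.906).

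The remaining rows with large differences were shifts of about 1 point in abundant coding rows. Epha5, an ephrin receptor, had 12.3, 11.8 and 11.5% against 11.1, 10.7 and 10.8% in ENSMUST00000113399, and its row ENSMUST00000113398, at nearly the same counts, gave the same pattern. Rtn4, which encodes the axon growth inhibitor Nogo, had 17.7, 18.1 and 17.9% against 18.1, 18.9 and 19.5% in ENSMUST00000102841. In Rtn4 the lowest transgenic share touched the highest control at this rounding. B3gat1, the enzyme that makes the HNK-1 sugar epitope, had 22.4, 21.2 and 22.6% against 22.7, 23.2 and 23.7% in ENSMUST00000161115. Itsn1, an endocytic scaffold, had 16.0, 16.5 and 16.1% against 15.2, 15.9 and 14.9% in ENSMUST00000114002. All of these had an adjusted p of 1 by edgeR and of 0.846 to 0.960 by limma.

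**Figure D2:**
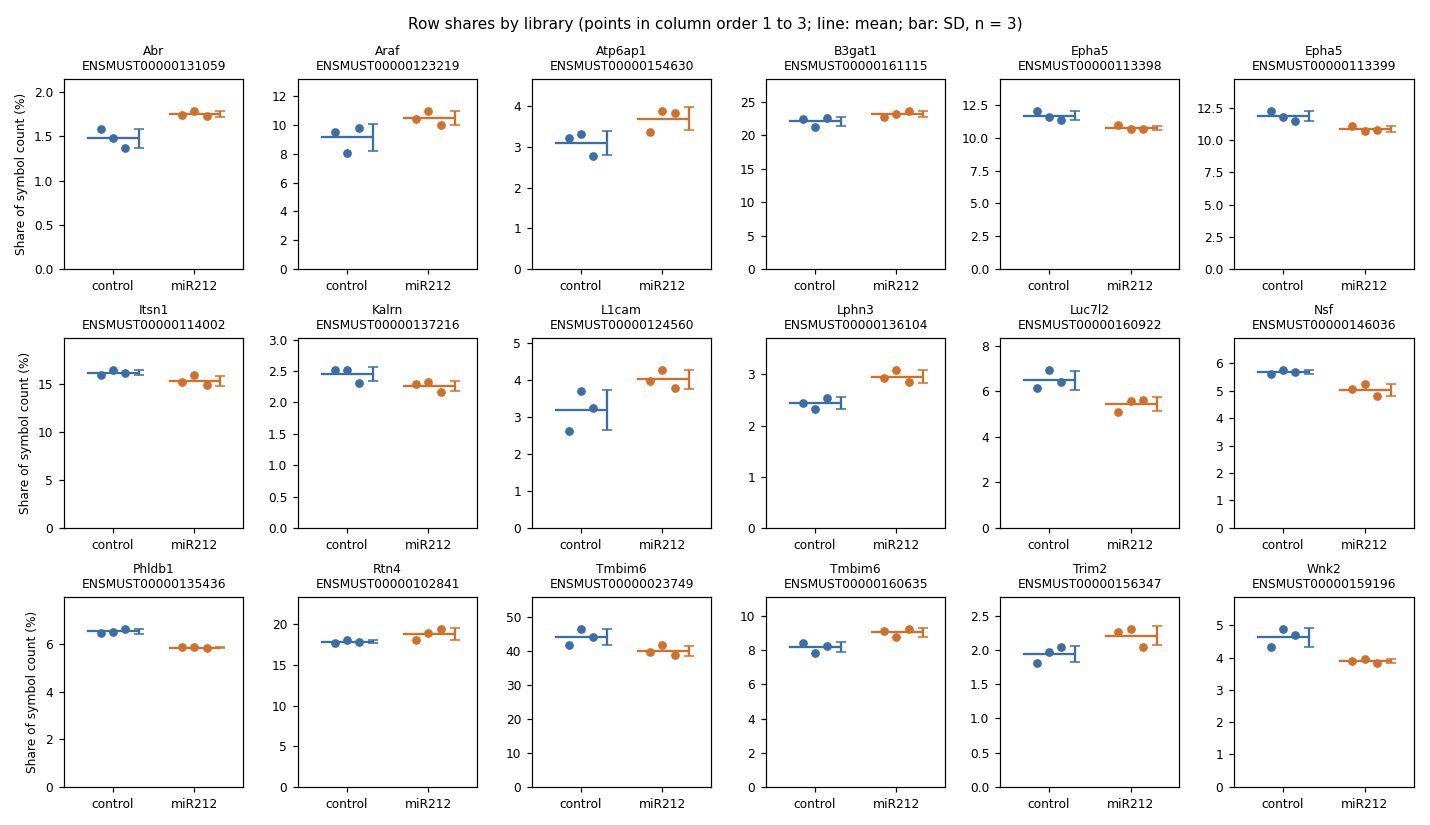
Share of the symbol's summed count (y axis, percent, from 0) in each control (blue) and tTA::miR212 (orange) library for the 18 rows with the smallest p or the largest difference without overlap; lines are means and bars SD (n = 3). The groups are close beside the height of each share: the Phldb1 row goes from 6.54% to 5.86% and the Lphn3 row from 2.44% to 2.95%.

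The seed match to miR-212-3p and miR-132-3p, GACTGTT, was searched in the annotated 3′ UTRs on the transcript's own strand. It was found in 72 of 1255 coding member rows with a 3′ UTR (5.74%), against 12.4% of 8995 such rows of the whole table; 3′ UTR lengths were not matched. The 72 rows belong to 20 symbols and hold 27 distinct sites. Shorter seed matches and matches outside the 3′ UTR were not searched. Sites of Trim2, a ubiquitin ligase of neurons, are shown because its rows are described next (mm9, gene strand, seed match in capitals).
Trim2 site 1, chr3:83965684-83965712, minus strand: aaagttgttatGACTGTTtgctggtgttt
Trim2 site 2, chr3:83966748-83966776, minus strand: tctgcctgcagGACTGTTtctgtttctgg

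In 16 members, some coding rows held the match and others did not, so both kinds could be compared within the gene. The summed share of the rows with the match was below all controls in 1 of them, Trim2, and above in 0, or 6.25%, against 13 below and 8 above among 152 such symbols of the whole table (13.8%). The median difference was −0.056 points in members and −0.085 in all such symbols, and 9 of 16 members were lower in the mean. In Trim2, rows with the match held 54.8, 55.4 and 55.3% of the counts in controls and 54.4, 52.9 and 53.7% in transgenic libraries (55.2% ± 0.31 and 53.7% ± 0.77, SD, n = 3). All transgenic values lay below all controls, and transgenic 1 was the closest to them.

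Row by row, 5 of the 11 rows of Trim2 lay below and 4 above control (4.75% and 4.5% over all rows). Rows of a symbol share reads, and their shares have a fixed sum, so a lower share in some rows raises that of others. These rows are therefore not separate observations. The 5 below were the 4 rows with the match and ENSMUST00000107694, which was not matched to the annotation and so was not searched. The 4 above were 2 retained-intron rows and 2 coding rows. The coding ones, ENSMUST00000054990 and ENSMUST00000065380, have a 3′ UTR without the match. The former held 7.83, 7.54 and 7.66% in controls and 7.88, 8.43 and 8.03% in transgenic libraries. Of the rows with the match, ENSMUST00000107691 held 14.5, 14.4 and 14.4% in controls and 14.29, 13.75 and 13.96% in transgenic libraries. None of these rows passed in edgeR or limma after adjustment. The gene's row with the smallest p was a processed transcript, ENSMUST00000156347, at 1.82, 1.97 and 2.05% against 2.27, 2.32 and 2.05%, where the groups overlapped. The summed level of Trim2 was 1612, 1695 and 1506 CPM in controls and 1530, 1755 and 1820 in transgenic libraries, also overlapping.

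Mapt encodes the microtubule-associated protein tau and is a reported target of this microRNA family. Of its 11 rows, 1, ENSMUST00000106992, reaches the match in its long 3′ UTR, and 3 coding rows have a 3′ UTR without it. The other 7 rows had no annotated 3′ UTR and were not searched. In ENSMUST00000106992, 70.2% of the bases are its own. It held 33.0, 33.9 and 34.9% of the counts in controls and 33.8, 35.6 and 28.7% in transgenic libraries. Transgenic 3 was low and transgenic 2 was above all controls, so the groups overlapped and the transgenic spread (SD 3.57) exceeded that of the controls (SD 0.967). In raw counts, not scaled to the library, this row stood at 1202, 1417 and 1381 in transgenic 1, 2 and 3. The totals of these libraries were 3146667, 3739682 and 3619791. Mapt as a whole had a summed log2 change of 0.07 (SE 0.083, edgeR adjusted p = 0.959). For the 20 members with a match, the median summed log2 change was 0.031, against 0.003 for the 168 whose annotated 3′ UTRs lack it, and over all symbols it was 0.021 and 0.002.

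**Figure D3:**
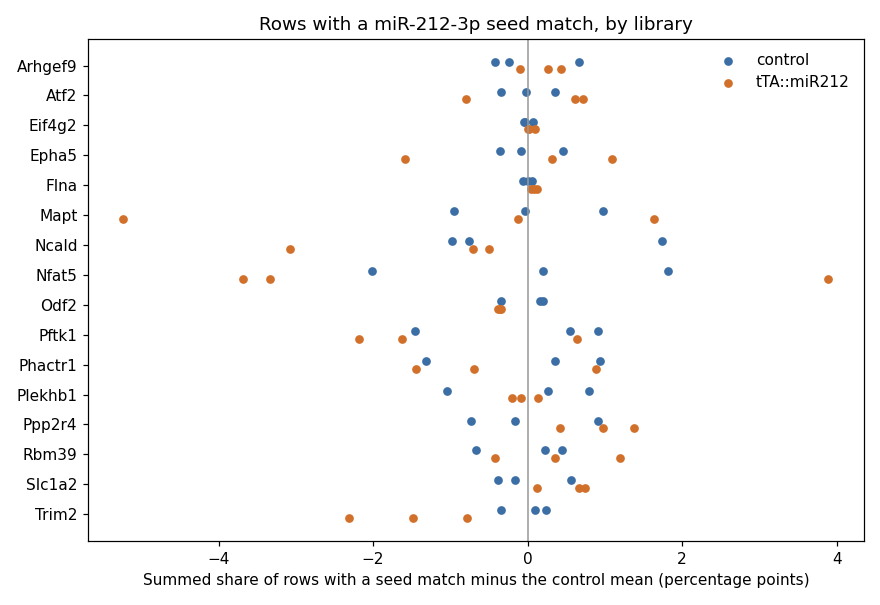
For the 16 members in which some coding rows have a seed match and others do not, the summed share of the rows with the match in each library, minus the mean of the controls (x axis, percentage points; blue, controls; orange, tTA::miR212; n = 3 each). The groups overlap in 15 of the 16, and in Trim2 the transgenic points lie to the left of all controls.

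Summed over their rows, no member differed in abundance past the threshold. The highest summed log2 change was 0.34, for Tsc22d1, and the median was 0.005 against 0.004 for all 4618 symbols. No member passed an adjusted p of 0.05 in edgeR (0.0% of all symbols), and 14 had an unadjusted p under 0.05, or 14 of 189 against 5.28% of all symbols. DESeq2 also gave 0 members, with 14 unadjusted. Groups did not overlap in 21 members (background 11.3%), with 9 above (background 6.08%) and 12 below (background 5.24%). Row by row, edgeR called 0 of 2008 member rows (0.0% of 11706 rows) and 97 were under 0.05 unadjusted (background 4.73%), with 0 and 44 by DESeq2. For the unadjusted DESeq2 counts the share over the whole table is not given here. In hippocampal tissue, fewer cells of a type and less RNA per cell cannot be told apart.

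The members with the smallest p for the summed count were Chd3, Tsc22d1, Camta2, Dlg1 and Atp9a. Chd3, a chromatin remodeller of the NuRD complex, stood at 3685, 3635 and 3340 CPM in controls and 3938, 4216 and 4172 in transgenic libraries. Camta2, a calmodulin-binding transcription activator, stood at 2093, 2297 and 2065 against 2392, 2412 and 2745, and Atp9a, a phospholipid-flipping ATPase, at 1838, 1837 and 1744 against 2065, 2036 and 1994. These 3 were above control in every transgenic library, with log2 changes of 0.20 (SE 0.056), 0.22 (SE 0.071) and 0.16 (SE 0.056). Dlg1, the synaptic scaffold SAP97, was below in every one, at 444.9, 414.9 and 400.8 against 382.9, 350.0 and 321.6 (log2 change −0.26, SE 0.088). All 4 had an edgeR adjusted p of 0.906.

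Tsc22d1 (chr14:76814768-76907569, plus strand), a leucine-zipper protein induced by TGF-beta, was called or not according to a single library. Its summed level was 1051, 1122 and 1154 CPM in controls and 1148, 1522 and 1552 in transgenic libraries, so that transgenic 1 lay at the control level and the other two about equally high. With all libraries the log2 change was 0.34 (SE 0.104, edgeR adjusted p = 0.906). Without transgenic 1 it was 0.46 with an adjusted p of 0.0309, the only member among 7 symbols called (0.152% of 4618), and 9 of its 10 rows were among 26 rows called (0.222% of 11706), with log2 changes of 0.41 to 0.57. Without transgenic 2, 1 row of the table was called (0.00854%), that of Xist (log2 change −3.94, edgeR adjusted p = 0.0397), which is not a member. The 10th row, the retained-intron row ENSMUST00000134109, had 58, 64 and 78 reads in controls and 64, 104 and 111 in transgenic libraries. Mean shares within Tsc22d1 differed by at most 0.49 points. Of its 10 rows, 2 lay above and 1 below control without overlap (4.5% and 4.75% over all rows), and these rows share reads. The long coding row ENSMUST00000048371 held 15.6, 15.2 and 15.3% in controls and 15.1, 14.8 and 14.8% in transgenic libraries, below without overlap. The short processed transcript ENSMUST00000140251 held 6.12, 6.50 and 6.01% against 6.54, 6.68 and 6.71%, above without overlap.

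**Figure D4:**
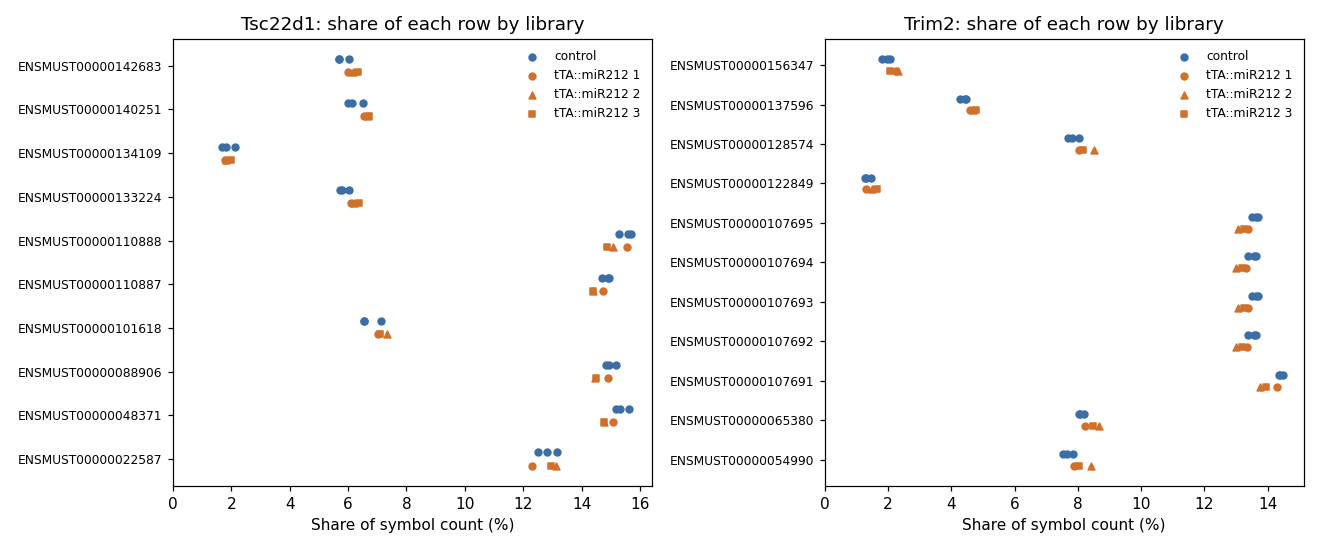
Share of the symbol's summed count (x axis, percent) of every row of Tsc22d1 (left) and Trim2 (right) in each control (blue) and tTA::miR212 (orange, marker by library) library. In both genes each row keeps its place; in Trim2 the 5 rows between 13% and 15% lie slightly lower and the rows near 8% slightly higher in transgenic libraries.

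**Figure D5:**
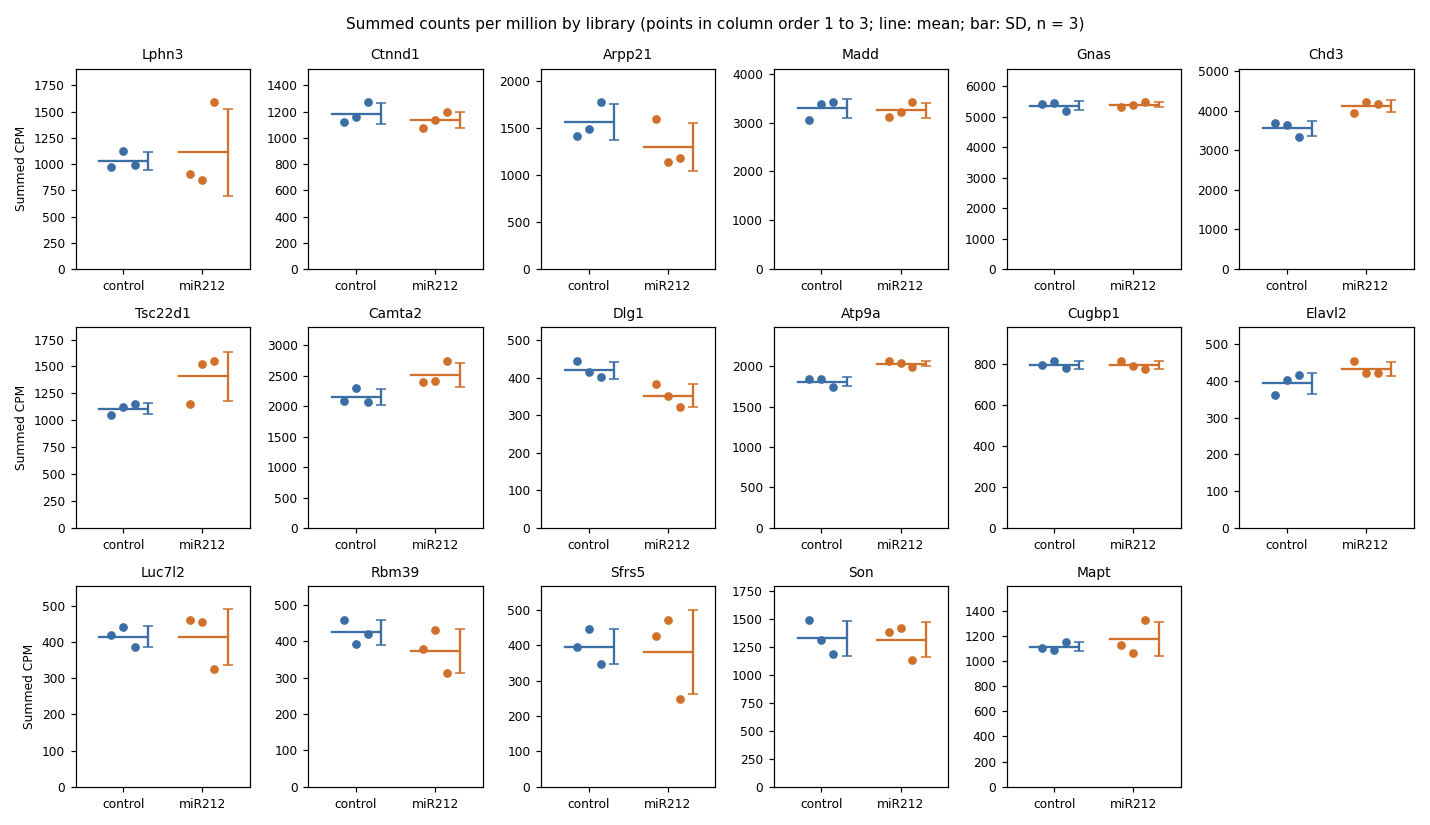
Summed level of a symbol in each library, in CPM over its rows (y axis, from 0), for the members with the most rows, with the smallest p for the summed count, and on the lists of splicing regulators and reported targets; lines are means and bars SD (n = 3). Chd3, Camta2 and Atp9a are above and Dlg1 below control in all 3 transgenic libraries, and Lphn3 and Tsc22d1 each have a transgenic library apart from the others.

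Proteins that regulate splicing are themselves made from many transcripts, and 6 members were on the list of splicing regulators: Cugbp1 and Elavl2, which bind GU-rich and AU-rich RNA, Luc7l2, Rbm39, the SR protein Sfrs5 and Son, a protein of nuclear speckles. Their summed log2 changes ran from −0.19 for Rbm39 to 0.13 for Elavl2, and 0 of 6 had an unadjusted p under 0.05 in edgeR. Elavl2 was at 361.9, 403.8 and 416.3 CPM in controls and 454.8, 421.4 and 421.8 in transgenic libraries, above without overlap, with no row differing by more than 0.035 points in share. Sfrs5 was at 394.6, 445.8 and 346.6 against 424.6, 471.7 and 247.3. Transgenic 3 was low in Sfrs5, at 247.3, in Luc7l2, at 323.8, and in Rbm39, at 311.3, below all controls in each. It was also below all controls in Son, at 1130 against a lowest control of 1181. In Cugbp1 it was below them by a narrow margin, at 777.7 against 778.7. For Rbm39, transgenic 1 lay below all controls too, at 377.5 against a lowest control of 391.7.

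Of the 53 rows of these 6 genes, 2 lay above and 2 below control, no larger a share than the 9.25% of all rows without overlap. In Sfrs5 the row annotated for nonsense-mediated decay, ENSMUST00000125814, held 13.6, 13.6 and 13.7% in controls and 12.95, 13.21 and 12.63% in transgenic libraries, below without overlap. The retained-intron row ENSMUST00000151036 of the same gene held 14.9, 15.1 and 15.2% against 15.04, 14.29 and 13.30%, where transgenic 1 was at the control level. In Cugbp1, the coding row ENSMUST00000111455 held 7.03, 7.07 and 7.24% against 7.64, 8.07 and 7.28%, above by a narrow margin in transgenic 3. Luc7l2 held the other two: its row annotated for nonsense-mediated decay, ENSMUST00000160511, at 8.03, 7.67 and 7.60% against 8.28, 8.24 and 8.28%, and the retained-intron row given above.

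No member on the other functional lists passed, in any row or in its sum. Of 10 members among synaptic scaffolds and adhesion molecules, 3 had a summed log2 change above 0 and 7 below (median −0.08), and of their 108 rows 4 had shares above control and 12 below (4.5% and 4.75% over all rows, for this and the next lists). Kinases, phosphatases and calcium signalling genes gave 14 members, 9 above 0 and 5 below (median 0.03), with 2 of 154 rows above and 7 below. Cytoskeletal and transport genes gave 17 members, 11 above 0 and 6 below (median 0.02), with 4 of 190 rows above and 10 below. The 3 channel and receptor genes had 0 rows above and 1 below of 45. Meg3, the single long noncoding RNA, was at 4698, 4528 and 4008 CPM in controls and 4531, 5053 and 1701 in transgenic libraries, low in transgenic 3 alone. Its summed log2 change was −0.24 with all libraries and 0.11 without transgenic 3, and all 10 rows overlapped in share.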

How the data were processed

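Hippocampal RNA-seq of 3 tTA::miR212 and 3 control libraries was used. Reads were aligned to mm9 with Bowtie 0.12.7, per the labels' protocols. The labels' protocols name custom R scripts, and Cufflinks 1.2 for FPKM values, which were not used; which of these made the counts, and the annotation version, are not stated. The deposited table holds raw counts per Ensembl transcript row, with 6 normalized per-sample columns that were not used. Its deposited q-values were read only to count rows under 0.05, with 0 member rows against 7 of all 11706 rows. Its deposited p-values were not used. Library preparation is not described as stranded, so reads from overlapping genes on opposite strands cannot be told apart.

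Row biotypes, exons and 3′ UTRs came from GENCODE M1. Shares were tested with edgeR 4.0.16 (quasi-likelihood, symbol sum as offset) and limma 3.58.1 (log2 of the row count plus 0.5 over the symbol sum plus 1), adjusted by Benjamini-Hochberg over all 9643 rows of symbols with 2 or more rows. Abundance was tested with edgeR (TMM, low-count filter) and, as an alternative, DESeq2 1.42.0. The biological coefficient of variation was 8.34% for rows. Scripts were tested on simulated data. The replicates are pools of animals, so p-values measure the spread between pools. CPM are counts scaled to the library total over all rows.

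Named were the 5 members with most rows, the 12 with the smallest Simes p (with their row of smallest p), the 8 largest share differences without overlap, the 5 smallest p for summed counts, and members on the lists of splicing regulators and reported targets. Members and lists were chosen with earlier results of these data known.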

Additional observations from a re-analysis of the deposited data

How the results depend on the processing

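The counts of member rows, of all rows and of member symbols with a changed share were 0 under every alternative run: diffSpliceDGE, limma, no filter, a mean count of at least 50, identical rows kept once, limits of 6 or 10 rows, each library left out (0 to 0), and, chosen after seeing the data, edgeR without its lower bound at counting error and limma with a block or without each library. Without that bound edgeR gave 132 member rows at an unadjusted p under 0.05, with a smallest adjusted p of 0.315. The share over all rows for this setting is not given here. The counts of changed abundance were 0 under RLE normalization, DESeq2, no filter and, for summed counts, the highest row. Leaving out libraries gave 0 to 9 member rows and 0 to 1 member symbols, the 9 and the 1 being Tsc22d1 without transgenic 1. Column numbers do not pair the libraries (correlations of same-numbered deviations −0.085, 0.021 and −0.037), and with the replicate block all 5 counts were 0.

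The 18 named share ratios kept their sign under all alternatives in which the row was fitted. These rows were named for a small p or a large difference without overlap in these same data. Their constant sign was therefore largely set by that choice, and it cannot be compared with the summed counts, many of which were named by other rules. Of 18 named summed counts, 9 changed sign when a library was left out, and their log2 changes then ranged from −0.24 (without transgenic 3) to 0.28 in Lphn3, −0.075 to 0.0080 in Madd, −0.020 to 0.016 in Gnas, −0.032 to 0.0098 in Cugbp1, −0.10 to 0.13 (without transgenic 3) in Luc7l2, −0.24 to 0.17 (without transgenic 3) in Sfrs5, −0.099 to 0.070 in Son, −0.033 (without transgenic 3) to 0.14 in Mapt and −0.50 to 0.11 (without transgenic 3) in Meg3. The cause was not tested. With 3 pools a group and shared reads, intervals were wider for the rows with bases of their own than for all member rows.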
